A study of Homo sapiens with 6 samples.

Results

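The SR protein and hnRNP genes described here were the rows of the deposited expression table whose gene name begins with SRSF followed by a number, or with HNRNP followed by letters and digits, leaving out names that end in P and a number, as processed pseudogenes do. The rule found 34 genes among 33392 rows, 12 of the SRSF family and 22 of the HNRNP family, and set aside 48 HNRNP pseudogene rows. The measurements came from HK-2 cells, an established epithelial line from human kidney cortex immortalised with papillomavirus oncogenes. One group was treated with TGF-β1 and an siRNA that targets DYRK2, one of the DYRK kinases, and the other with TGF-β1 and a scramble siRNA, each for 48 h and with 3 libraries. All 6 libraries therefore carried TGF-β1, and cells without TGF-β1 were not analysed here. Libraries are called siDYRK2 and scramble replicates 1 to 3, and nothing in the labels says whether they came from separate cultures, so the p-values measure the spread between these libraries.

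SR proteins bind exonic enhancers through RNA recognition motifs and recruit the early spliceosome through a tail rich in arginine and serine, whose phosphorylation by the SRPK, CLK and some DYRK kinases sets where the proteins sit in the nucleus. The hnRNPs coat nascent transcripts and often act against SR proteins at the same exons, besides their work in mRNA export, stability and translation. Many genes of both families limit their own amount by splicing a premature stop into part of their transcripts, which are then destroyed by nonsense-mediated decay. In epithelial cells treated with TGF-β1, the balance of these proteins is known to bear on isoform switches during epithelial to mesenchymal transition.

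DYRK2 itself had 1.45, 1.54 and 1.49 FPKM (fragments per kilobase of transcript, scaled by library size) in siDYRK2 libraries, against 5.84, 6.06 and 5.96 FPKM in scramble libraries. The groups did not overlap, and the siDYRK2 mean was 25.1% of the scramble mean (log2 fold change −1.70, SE 0.051, limma adjusted p = 2.0e-06). Of the epithelial markers, 6 of 6 were present, with summed levels of 768 to 808 FPKM in siDYRK2 libraries and 718 to 734 FPKM in scramble libraries. The sum hides opposite changes: KRT7 was higher, at a mean of 542 FPKM in siDYRK2 and 382 FPKM in scramble libraries, while KRT19 (97.6 and 157.7 FPKM in siDYRK2 and scramble libraries), KRT18 (87.3 and 123.4 FPKM) and CDH1 (1.17 and 2.97 FPKM) were lower, each with a limma adjusted p of at most 8.35e-05. The labelled line is a proximal tubule model, but 0 of 12 proximal tubule markers reached a mean of 0.5 FPKM, with 9 of them listed and sums of 0.61 to 0.86 FPKM in siDYRK2 and 0.88 to 1.03 FPKM in scramble libraries. Of 5 lung or thyroid markers, 3 were listed and 2 reached a mean of 0.5 FPKM. NKX2-1, known as a regulator of thyroid and lung cells, stood at 23.24, 23.07 and 23.96 FPKM in siDYRK2 and 27.30, 26.70 and 25.54 FPKM in scramble libraries. SFTPB averaged 4.03 FPKM in siDYRK2 and 3.65 FPKM in scramble libraries, and SFTPC 0.043 and 0.02 FPKM. Endothelial markers summed to at most 0.06 FPKM in siDYRK2 and 0.07 FPKM in scramble libraries, and fibroblast markers to 0.62 to 0.75 FPKM in siDYRK2 and 0.35 to 0.42 FPKM in scramble libraries. Of 3 listed immune markers only CD68 was above 0.5 FPKM, and the immune sum was 16.3 to 17.0 FPKM in siDYRK2 and 11.1 to 17.5 FPKM in scramble libraries. What part, if any, these levels had in the results below was not tested.

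Among the 33 members abundant enough to be tested, the largest increases were in HNRNPD and HNRNPA3, and the largest decreases were in HNRNPUL2 and SRSF8. The start regions of these 4 genes are shown because they stand at both ends of the range. Each is the RefSeq promoter window on GRCh38.p14, 250 bases before to 50 after the start, in the direction of transcription, with capitals on the motifs searched. HNRNPD lies at chr4:82373942-82374241 on the minus strand, HNRNPA3 at chr2:177212544-177212843 on the plus strand, HNRNPUL2 at chr11:62727408-62727707 on the minus strand and SRSF8 at chr11:95066627-95066926 on the plus strand.
HNRNPD: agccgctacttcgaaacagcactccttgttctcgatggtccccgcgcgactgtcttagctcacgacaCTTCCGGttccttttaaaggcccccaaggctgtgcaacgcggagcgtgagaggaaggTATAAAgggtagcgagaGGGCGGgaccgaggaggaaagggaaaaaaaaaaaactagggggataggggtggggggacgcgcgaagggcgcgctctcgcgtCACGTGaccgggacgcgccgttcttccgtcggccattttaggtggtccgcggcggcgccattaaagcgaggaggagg
HNRNPA3: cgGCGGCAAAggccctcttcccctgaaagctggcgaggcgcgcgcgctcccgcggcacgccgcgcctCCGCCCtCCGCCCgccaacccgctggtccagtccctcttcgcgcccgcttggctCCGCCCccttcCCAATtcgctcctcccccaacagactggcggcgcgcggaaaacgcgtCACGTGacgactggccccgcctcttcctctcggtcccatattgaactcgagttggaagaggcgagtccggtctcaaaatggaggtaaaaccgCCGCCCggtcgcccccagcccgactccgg
HNRNPUL2: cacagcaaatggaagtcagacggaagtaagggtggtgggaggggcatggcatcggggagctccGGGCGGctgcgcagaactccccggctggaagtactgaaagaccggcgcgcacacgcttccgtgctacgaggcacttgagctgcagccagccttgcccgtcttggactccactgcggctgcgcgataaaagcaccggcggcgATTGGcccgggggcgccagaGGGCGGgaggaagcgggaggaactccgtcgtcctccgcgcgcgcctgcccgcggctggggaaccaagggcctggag
SRSF8: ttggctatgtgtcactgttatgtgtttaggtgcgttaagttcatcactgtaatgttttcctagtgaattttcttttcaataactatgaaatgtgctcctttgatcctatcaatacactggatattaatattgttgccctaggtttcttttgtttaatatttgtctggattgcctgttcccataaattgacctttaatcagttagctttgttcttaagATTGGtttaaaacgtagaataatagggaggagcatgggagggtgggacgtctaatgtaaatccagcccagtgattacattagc

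The capitals mark words found on either strand, where the GC box is spelled GGGCGG, the box of the same name CCAAT, the TATA box TATAAA, the core word of ETS factors CCGGAAG and the E box CACGTG. The word of the factor NRF1 was GCGCATGCG and that of the factor YY1 was AAGATGGCG. For E2F the word TTTGGCGC counted, as well as the word TTTCCCGC, the word TTTCGCGC and the word TTTGCCGC. Words of different motifs can share bases, so a stretch can count for the GC box and for E2F. HNRNPD held a GC box, a TATA box 126 bases before the start, an ETS core and an E box, the last 27 bases before the start. HNRNPA3 held 4 GC boxes, a CCAAT box, an E2F word and an E box. HNRNPUL2 held 2 GC boxes and a CCAAT box, and SRSF8 held only a CCAAT box. The SRSF8 window was 36% G and C, the lowest of the 31 members with a RefSeq window, whose median was 64%, against 58.3% over all 27305 windows.

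Over the 31 member windows the E box was present in 22.6%, against 7.44% of all windows and 10.2% of the windows of tested genes. The 7 members with it were HNRNPA3, HNRNPD, HNRNPDL, HNRNPH2, HNRNPH3, HNRNPM and HNRNPUL1, of which 3 were called higher, 1 was called lower and 3 were not called. The GC box was present in 67.7% of member windows, against 44.6% of all windows and 71.5% of those of tested genes. The CCAAT box was present in 48.4% of member windows, 35.7% of all windows and 36.6% of those of tested genes, and the E2F words in 12.9%, 3.33% and 5.53%. The TATA box stood in 16.1% of member windows, 11.95% of all windows and 5.36% of those of tested genes. The ETS core stood in 16.1% of member windows, above the 10.7% of all windows and below the 20.1% of those of tested genes, and the NRF1 word in 3.23%, between 2.10% and 3.88%. No member window held the YY1 word, which 1.85% of all windows and 4.08% of those of tested genes hold. These are matches of letters in a window and say nothing of whether a factor binds there.

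Most members were abundant: 30 of the 34 had a mean of at least 10 FPKM over the 6 libraries, in a table where only 4466 genes did. FPKM is scaled by transcript length, so levels can be set side by side between genes. The highest was HNRNPK, which binds cytosine-rich RNA through KH domains, at 123.78, 126.93 and 125.98 FPKM in siDYRK2 libraries and 128.59, 129.60 and 126.75 FPKM in scramble libraries. HNRNPF, a binder of guanine tracts, followed at 124.48, 122.15 and 127.59 FPKM in siDYRK2 and 119.08, 124.18 and 124.87 FPKM in scramble libraries. The ranges of these 2 genes overlapped between the groups and with each other.

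HNRNPC, which binds uridine tracts and packages pre-mRNA, came next, at 90.72, 95.52 and 94.39 FPKM in siDYRK2 libraries and 86.78, 84.81 and 80.23 FPKM in scramble libraries. Every siDYRK2 library was above every scramble library for HNRNPC. The SRSF genes were lower as a group, and their highest member was SRSF2, a binder of exonic enhancers, at 58.67, 54.35 and 62.39 FPKM in siDYRK2 and 55.17, 53.23 and 47.98 FPKM in scramble libraries. SRSF6 had 50.05, 49.58 and 48.27 FPKM in siDYRK2 and 49.02, 50.52 and 45.98 FPKM in scramble libraries. SRSF5, a relative of SRSF6 known as an early-response SR protein in liver growth, had 43.65, 43.78 and 41.17 FPKM in siDYRK2 and 44.94, 44.71 and 43.58 FPKM in scramble libraries. The groups overlapped for SRSF2, SRSF6 and SRSF5.

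**Figure D1:**
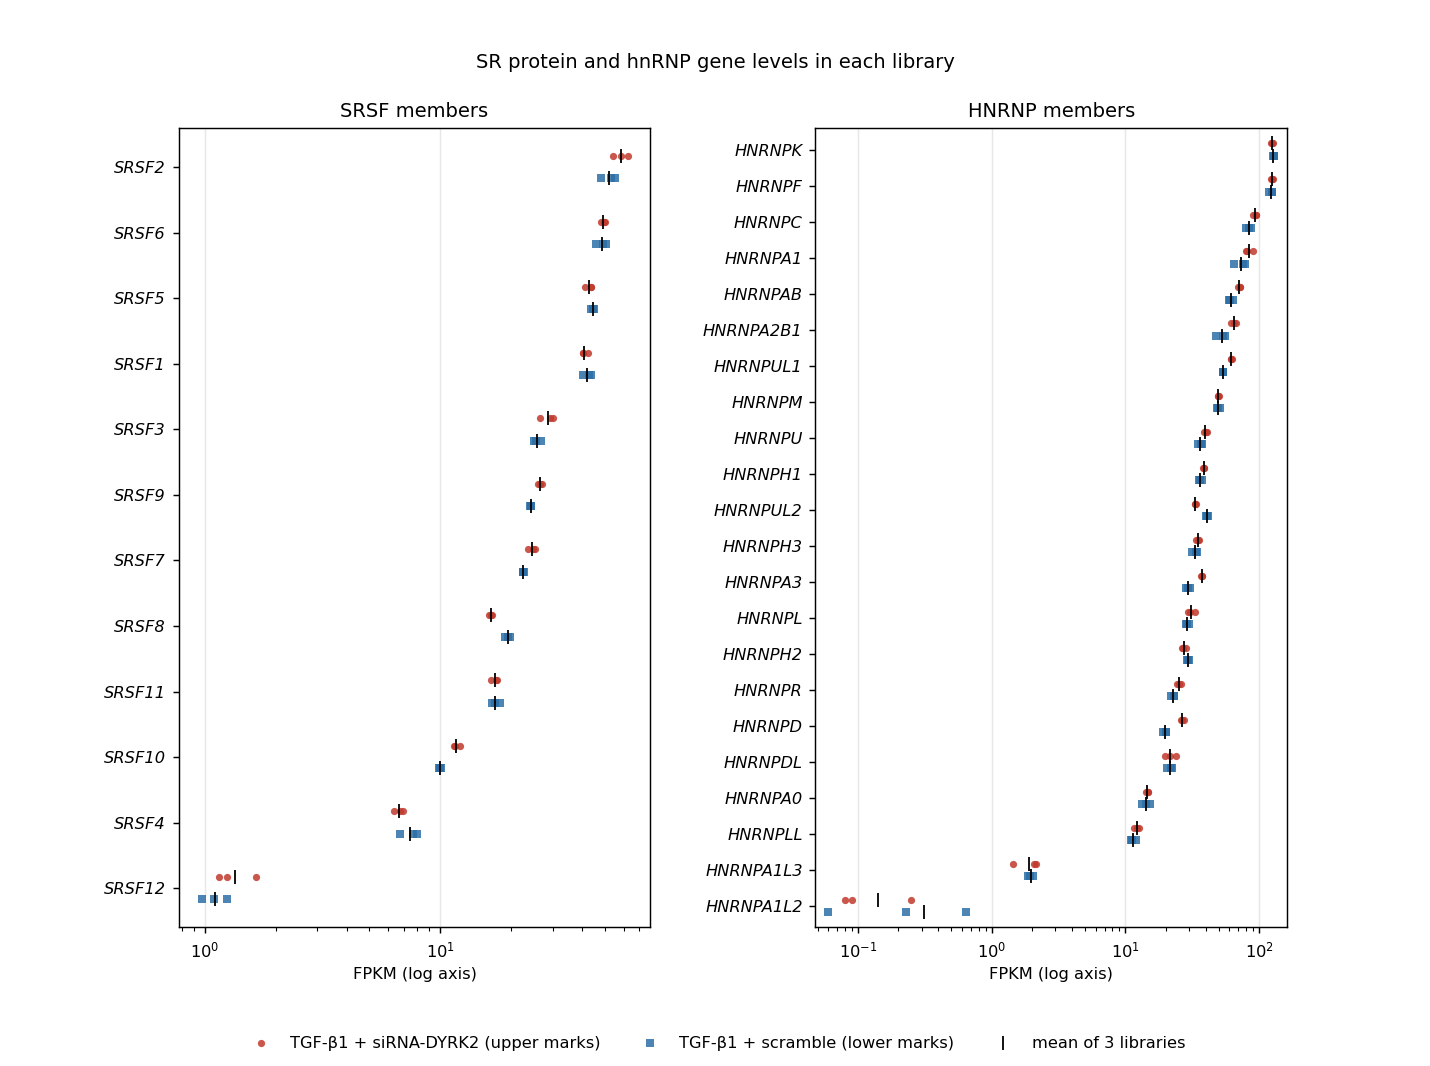
Levels of the 34 genes in FPKM on a log axis, with 1 mark per library, siDYRK2 libraries as upper red circles and scramble libraries as lower blue squares, and a black tick at the mean of the 3 libraries. Most genes lie above 10 FPKM and the marks of the 2 groups lie close together; HNRNPD and HNRNPA3 are shifted up and HNRNPUL2 and SRSF8 down in siDYRK2 libraries, and HNRNPA1L2 is below 1 FPKM in all libraries.

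The siRNA against DYRK2 was followed by small changes in a minority of these genes at the level of whole-gene RNA. Of 33 members that reached a mean of 0.5 FPKM and were tested, 14 were called (limma adjusted p under 0.05, over all 15121 genes tested), 11 of them higher and 3 lower in siDYRK2 libraries. That is 42.4% of the members tested, where 38.3% of all genes tested were called, 20.4% higher and 17.9% lower. Members are abundant and so better measured than most: of the 30 members averaging 10 FPKM or more, 14 were called (46.7%), against 54.8% of all such genes, of which 32.3% were called higher and 22.5% lower. The share of members called is thus near or under the background, and the count by itself is not a result about these families. In these bulk libraries fewer cells of one kind and less RNA per cell cannot be told apart.

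By family, 4 of 12 SRSF members were called, SRSF10, SRSF9 and SRSF7 higher and SRSF8 lower, and the median log2 fold change was 0.074. Of 21 HNRNP members tested, 10 were called, 8 higher and 2 lower, and their median log2 fold change was 0.095, against 0.0086 over all genes tested and 0.041 over genes averaging 10 FPKM or more. The SRSF median was 0.046 without scramble replicate 3, and 6 HNRNP members were called without siDYRK2 replicate 2. Without scramble replicate 3, 4 SRSF members were called, 2 higher and 2 lower, and 8 HNRNP members, 7 higher and 1 lower. Scramble replicate 3 held the lowest sum of both families: the SRSF genes summed to 320.75, 323.06 and 329.47 FPKM in siDYRK2 libraries and to 322.05, 319.44 and 302.88 FPKM in scramble libraries. The HNRNP genes summed to 1010.41, 1012.67 and 1034.98 FPKM in siDYRK2 libraries and to 961.02, 963.44 and 932.96 FPKM in scramble libraries. The SRSF sums overlapped between the groups, and the HNRNP sums did not. In 16 of the 33 tested members (48.5%) the 2 groups did not overlap, 13 higher and 3 lower in siDYRK2 libraries, against 51.7% of all genes tested.

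**Figure D2:**
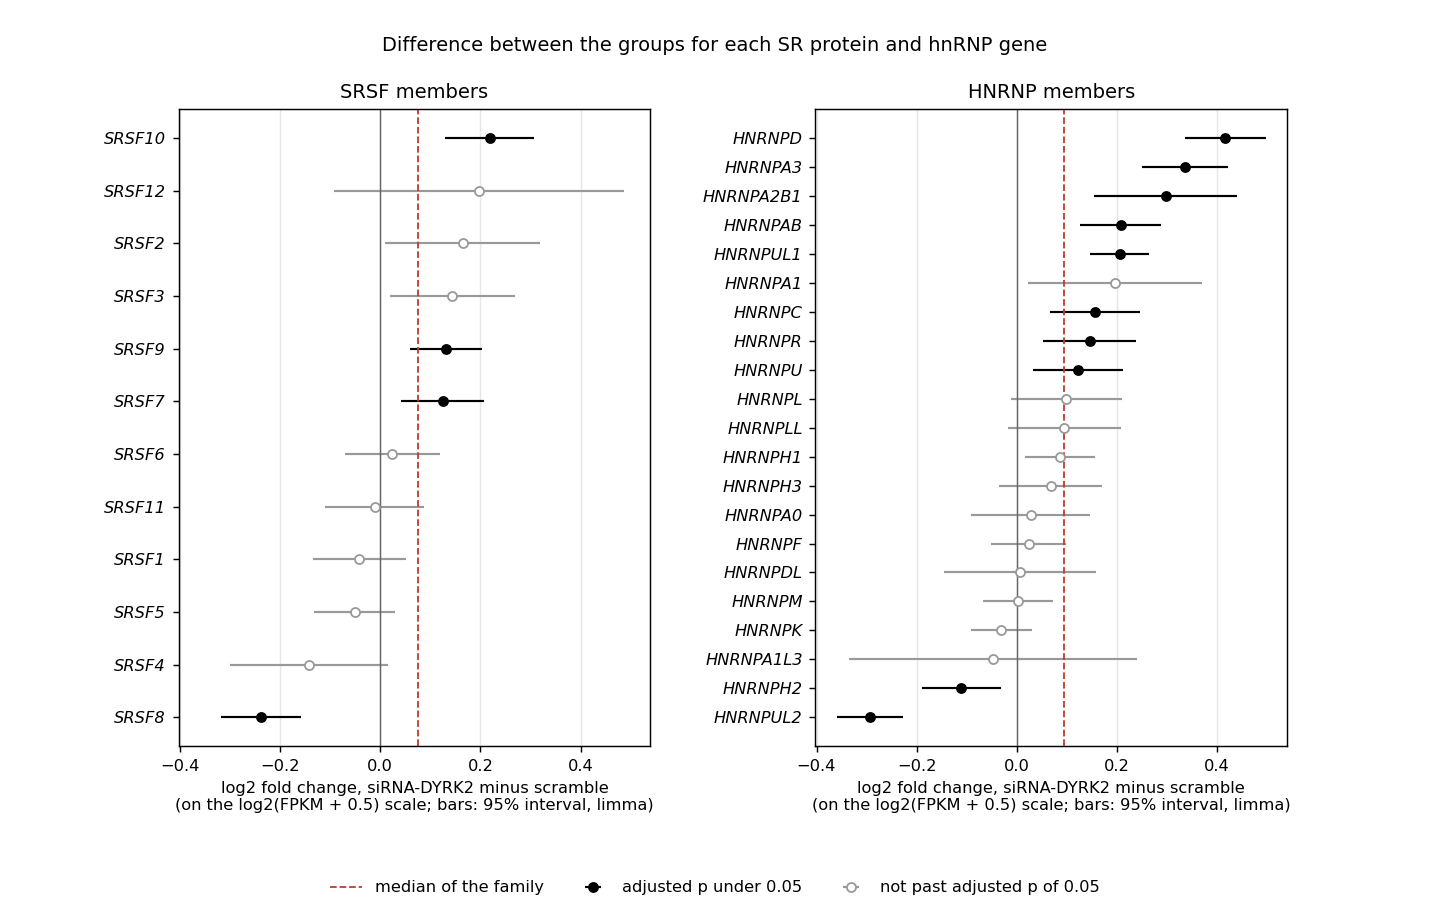
Log2 fold change of each tested gene, as siDYRK2 minus scramble in units of log2(FPKM + 0.5), with limma's 95% interval as the bar. Filled points passed an adjusted p of 0.05, open points did not, and the dashed line is the family's median; the points run from −0.29 for HNRNPUL2 to 0.42 for HNRNPD.

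Among the SR proteins the clearest increase was in SRSF10, an atypical SR protein that represses splicing when it is dephosphorylated, as in heat shock. It had 11.44, 12.13 and 11.58 FPKM in siDYRK2 libraries and 9.98, 10.11 and 9.89 FPKM in scramble libraries. Every siDYRK2 library was above every scramble library, a difference of 17.2% between the means (log2 fold change 0.22, SE 0.038, limma adjusted p = 0.00368). SRSF12, its closest relative and the least abundant SRSF gene, averaged 1.35 ± 0.27 FPKM in siDYRK2 and 1.10 ± 0.14 FPKM in scramble libraries (SD, n = 3 each), and did not pass the test (limma adjusted p = 0.248).

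SRSF9, the closest relative of the splicing enhancer protein SRSF1, had 25.97, 26.39 and 27.17 FPKM in siDYRK2 libraries and 24.06, 24.21 and 24.24 FPKM in scramble libraries. The groups did not overlap (log2 fold change 0.13, SE 0.031, limma adjusted p = 0.0136). SRSF1 itself had 40.25, 40.32 and 42.30 FPKM in siDYRK2 and 43.49, 42.76 and 40.29 FPKM in scramble libraries. The SRSF1 values overlapped, with a log2 fold change of −0.042 (95% interval −0.13 to 0.051).

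SRSF7, which with SRSF3 links splicing to mRNA export, had 23.58, 25.22 and 24.88 FPKM in siDYRK2 libraries and 22.57, 22.37 and 22.48 FPKM in scramble libraries. All 3 siDYRK2 libraries were above all scramble libraries (log2 fold change 0.12, SE 0.035, limma adjusted p = 0.0274), but the call was lost on leaving out any 1 library other than siDYRK2 replicate 1, with adjusted p between 0.0582 and 0.0894. SRSF3 averaged 28.6 ± 1.9 FPKM in siDYRK2 and 25.8 ± 0.9 FPKM in scramble libraries (SD, n = 3 each), with a limma adjusted p of 0.0704, and passed at 0.0178 without siDYRK2 replicate 1. SRSF2 averaged 58.5 ± 4.0 FPKM in siDYRK2 and 52.1 ± 3.7 FPKM in scramble libraries, with a limma adjusted p of 0.0901.

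SRSF8, a copy of SRSF2 that arose by retrotransposition in primates, was the one SR protein gene called lower. It had 16.65, 16.38 and 16.05 FPKM in siDYRK2 libraries and 19.44, 19.80 and 18.92 FPKM in scramble libraries. No siDYRK2 library reached the lowest scramble library, and the siDYRK2 mean was lower, with a percent difference of −15.6 (log2 fold change −0.24, SE 0.034, limma adjusted p = 0.0016). SRSF8 was called lower under each of the 14 alternative settings, with an adjusted p of at most 0.0102.

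SRSF4, SRSF5 and SRSF6 form a branch of the family with a pair of RNA recognition motifs each, and none of them passed the test. SRSF4 averaged 6.69 ± 0.32 FPKM in siDYRK2 and 7.45 ± 0.62 FPKM in scramble libraries (SD, n = 3 each), with a log2 fold change of −0.14 and a limma adjusted p of 0.136. Without scramble replicate 3 its adjusted p was 0.0302. SRSF5 and SRSF6, described above by library, had log2 fold changes of −0.051 (95% interval −0.13 to 0.030) and 0.024 (95% interval −0.071 to 0.12). SRSF11, a protein that works with U2AF at the 3′ splice site, had 16.41, 17.22 and 17.46 FPKM in siDYRK2 and 17.86, 17.09 and 16.54 FPKM in scramble libraries. The SRSF11 values overlapped, and its difference of −0.011 on the log2 scale was the smallest of the family.

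The A/B group of hnRNPs, which bind UAG-type motifs and often promote exon skipping, was higher in siDYRK2 libraries in 2 of its 4 main members. HNRNPA3 had 37.23, 36.88 and 37.68 FPKM in siDYRK2 libraries and 29.54, 30.57 and 28.23 FPKM in scramble libraries. The groups were far apart relative to their spread, with a mean difference of 26.5% (log2 fold change 0.34, SE 0.036, limma adjusted p = 0.000473). HNRNPA2B1, a reader of RNA trafficking signals as well as a splicing repressor, had 61.89, 64.49 and 67.33 FPKM in siDYRK2 libraries and 56.15, 53.53 and 47.98 FPKM in scramble libraries.

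For HNRNPA2B1 the groups did not overlap either (log2 fold change 0.30, SE 0.061, limma adjusted p = 0.00774), and without scramble replicate 3, its lowest library, the log2 fold change was 0.23. HNRNPA1, the best known splicing antagonist of SRSF1, had 80.60, 81.64 and 89.64 FPKM in siDYRK2 libraries and 78.38, 76.34 and 65.45 FPKM in scramble libraries. Its groups did not overlap, but the spread was wide and the limma adjusted p was 0.0739. HNRNPA0, a binder of AU-rich elements in cytokine mRNAs, averaged 14.6 ± 0.3 FPKM in siDYRK2 and 14.3 ± 0.9 FPKM in scramble libraries (SD, n = 3 each), with a limma adjusted p of 0.704. The HNRNPA1-like genes were low: HNRNPA1L3, which GENCODE v29 lists under a pseudogene name of the kind set aside here although as protein-coding, averaged 1.89 ± 0.38 FPKM in siDYRK2 and 1.95 ± 0.10 FPKM in scramble libraries. HNRNPA1L2 averaged 0.14 FPKM in siDYRK2 and 0.31 FPKM in scramble libraries and was not tested.

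HNRNPD, also called AUF1, binds AU-rich elements and steers the decay of the mRNAs that carry them, and it showed the largest increase of all 33 tested members. It had 26.27, 26.42 and 27.32 FPKM in siDYRK2 libraries and 20.30, 20.02 and 19.29 FPKM in scramble libraries. The lowest siDYRK2 library was well above the highest scramble library, and the means differed by 34.2% (log2 fold change 0.42, SE 0.034, limma adjusted p = 0.00015). HNRNPAB, a related protein of mRNA transport, had 72.26, 69.10 and 71.97 FPKM in siDYRK2 and 59.81, 61.18 and 63.55 FPKM in scramble libraries, again without overlap (log2 fold change 0.21, SE 0.034, limma adjusted p = 0.00311). HNRNPDL, the closest relative of HNRNPD, had 19.97, 21.41 and 23.76 FPKM in siDYRK2 and 22.24, 21.84 and 20.64 FPKM in scramble libraries. HNRNPDL overlapped between the groups, with a log2 fold change of 0.0063 and a 95% interval of −0.14 to 0.16.

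The HNRNPU group, large proteins that tie nuclear RNA to chromatin and to DNA repair, split in both directions. HNRNPUL1 had 62.37, 61.85 and 61.79 FPKM in siDYRK2 libraries and 54.05, 53.56 and 53.50 FPKM in scramble libraries. The 2 groups were tight and apart (log2 fold change 0.21, SE 0.025, limma adjusted p = 0.000804). HNRNPUL2 went the other way, with 33.61, 33.00 and 33.06 FPKM in siDYRK2 libraries and 41.16, 41.21 and 40.12 FPKM in scramble libraries. That was the largest decrease of the tested members, with a percent difference of −18.6 (log2 fold change −0.29, SE 0.028, limma adjusted p = 0.000284), and no library overlapped.

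HNRNPU had 40.53, 39.93 and 38.49 FPKM in siDYRK2 libraries and 34.90, 36.69 and 37.63 FPKM in scramble libraries. The groups did not overlap (log2 fold change 0.12, SE 0.038, limma adjusted p = 0.0413), but the call was lost on leaving out siDYRK2 replicate 1 or 2 or scramble replicate 1 or 2, with adjusted p between 0.0925 and 0.125. HNRNPR, a relative of SYNCRIP with a role in axonal mRNA transport, had 24.25, 25.11 and 26.06 FPKM in siDYRK2 and 23.14, 23.01 and 21.90 FPKM in scramble libraries. It was higher without overlap (log2 fold change 0.15, SE 0.040, limma adjusted p = 0.0245), and lost the call on leaving out siDYRK2 replicate 2 or 3 or scramble replicate 2 or 3, with adjusted p between 0.0564 and 0.0652. HNRNPC, given above by library, was higher by 11.4% (log2 fold change 0.16, SE 0.038, limma adjusted p = 0.0165), and its adjusted p was 0.0591 without siDYRK2 replicate 2.

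The F/H group binds guanine tracts and can either enhance or silence exons. HNRNPH2, its X-linked member, had 28.20, 27.13 and 26.62 FPKM in siDYRK2 libraries and 29.98, 29.06 and 29.54 FPKM in scramble libraries. The siDYRK2 libraries were all lower (log2 fold change −0.11, SE 0.034, limma adjusted p = 0.0362), and the call was lost on leaving out any 1 library other than siDYRK2 replicate 1, with adjusted p between 0.0723 and 0.1. HNRNPH1, nearly identical in protein, had 38.70, 38.53 and 38.22 FPKM in siDYRK2 and 36.04, 37.14 and 35.52 FPKM in scramble libraries.

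HNRNPH1 did not overlap between the groups but missed the threshold (log2 fold change 0.086, limma adjusted p = 0.0553), and it passed at 0.0364 when values were rescaled without mitochondrial genes. HNRNPH3 averaged 34.7 ± 1.0 FPKM in siDYRK2 and 33.1 ± 1.6 FPKM in scramble libraries (SD, n = 3 each), and HNRNPF had a log2 fold change of 0.024 (95% interval −0.051 to 0.098). Neither HNRNPH3 nor HNRNPF passed the test, with limma adjusted p of 0.262 and 0.595.

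The remaining hnRNPs overlapped between the groups and none passed the test. HNRNPM, which acts on CD44 splicing during epithelial to mesenchymal transition, had 49.90, 49.39 and 49.70 FPKM in siDYRK2 libraries and 50.98, 49.43 and 48.40 FPKM in scramble libraries. This was the smallest difference among the 33 tested members, 0.0020 on the log2 scale with a 95% interval of −0.068 to 0.072. HNRNPK had a log2 fold change of −0.031 (95% interval −0.093 to 0.030). HNRNPL, a binder of CA repeats, averaged 31.2 ± 1.8 FPKM in siDYRK2 and 29.1 ± 0.8 FPKM in scramble libraries, and its relative HNRNPLL, known from CD45 splicing in lymphocytes, averaged 12.2 ± 0.5 FPKM in siDYRK2 and 11.4 ± 0.5 FPKM in scramble libraries (SD, n = 3 each). Their limma adjusted p values were 0.139 and 0.158.

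Because close relatives can stand in for each other at the same sites, the FPKM of related members were also divided within each library, which removes library scaling. In all, 26 pairs within 10 groups of relatives were compared, with the groupings written down when the gene values were already known. The HNRNPUL1 to HNRNPUL2 ratio was 1.86, 1.87 and 1.87 in siDYRK2 libraries and 1.31, 1.30 and 1.33 in scramble libraries. It had the largest shift of the 26 pairs, 0.50 on the log2 scale, with HNRNPUL2 taken without its readthrough gene (described below). The HNRNPU to HNRNPUL2 ratio averaged 1.19 in siDYRK2 and 0.892 in scramble libraries, and the groups did not overlap.

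The HNRNPD to HNRNPDL ratio was 1.31, 1.23 and 1.15 in siDYRK2 libraries and 0.913, 0.917 and 0.935 in scramble libraries, so HNRNPD was the more abundant of the pair only in siDYRK2 libraries. The SRSF2 to SRSF8 ratio averaged 3.58 in siDYRK2 and 2.69 in scramble libraries, and the HNRNPH1 to HNRNPH2 ratio 1.41 in siDYRK2 and 1.23 in scramble libraries. In the other direction, the SRSF1 to SRSF9 ratio averaged 1.54 in siDYRK2 and 1.75 in scramble libraries. These pairs did not overlap between the groups, as was so for 15 of the 26. The exact two-sided permutation p of each was 0.1, the smallest that 3 libraries against 3 can give. After Benjamini-Hochberg adjustment over the 26 pairs it was 0.173, so none passed 0.05. The count of 15 was not set against pairs of other genes, and some pairs share a member, so it is a description only. Of all single genes tested, 51.7% did not overlap between the groups.

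**Figure D3:**
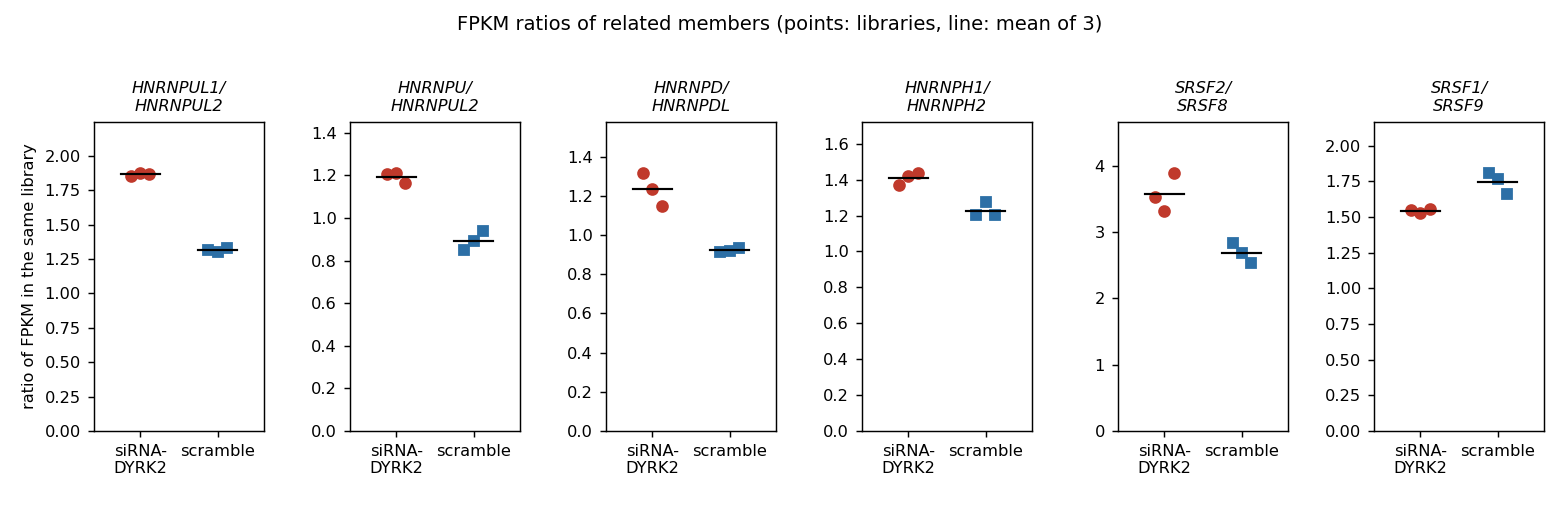
Ratio of the FPKM of 2 related genes within the same library for 6 pairs, with siDYRK2 libraries as red circles on the left, scramble libraries as blue squares on the right and a line at the mean of 3. The axes start at 0. The HNRNPUL1 to HNRNPUL2 ratio averages 1.87 in siDYRK2 and 1.31 in scramble libraries, and only the SRSF1 to SRSF9 ratio of these 6 is lower in siDYRK2 libraries. Which gene is the divisor sets the direction. All 6 pairs are from the 15 of 26 that did not overlap between the groups, and pairs that overlapped are not shown. HNRNPUL2 is taken without its readthrough gene.

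Several hnRNP genes have copies or overlapping genes that can share their reads, and how such reads were assigned is not stated in the labels. The 24 HNRNPA1 pseudogene rows summed to 26.3 FPKM in siDYRK2 and 23.8 FPKM in scramble libraries, 31.8% of the level of HNRNPA1 itself. The 4 HNRNPC pseudogene rows summed to 11.4 FPKM in siDYRK2 and 10.9 FPKM in scramble libraries, and the 10 HNRNPA3 rows to 3.12 FPKM in siDYRK2 and 2.10 FPKM in scramble libraries. The 4 HNRNPK rows summed to 5.65 FPKM in siDYRK2 and 3.82 FPKM in scramble libraries. Of 48 pseudogene rows 10 were tested, with 4 called higher and 1 lower, where 20.4% of all genes tested were called higher and 17.9% lower. The values of HNRNPA1, HNRNPA3, HNRNPC and HNRNPK are therefore uncertain by what these rows could hold.

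HNRNPUL2 shares exons with the readthrough gene HNRNPUL2-BSCL2, which had 3.78, 4.59 and 5.04 FPKM in siDYRK2 libraries and 0, 2.07 and 3.45 FPKM in scramble libraries. With both rows added, HNRNPUL2 stood at 37.39, 37.59 and 38.10 FPKM in siDYRK2 and 41.16, 43.28 and 43.57 FPKM in scramble libraries. The summed groups still did not overlap, with a percent difference of −11.7 in place of −18.6, smaller in size than the −15.6 of SRSF8. The ratios of HNRNPUL1 and HNRNPU to HNRNPUL2 given above used the HNRNPUL2 row alone and were not recalculated with the sum. The size and rank of their shifts therefore depend on how the shared reads were assigned. HNRNPH2 shares exons with RPL36A-HNRNPH2, at 24.4 FPKM in siDYRK2 and 25.8 FPKM in scramble libraries, and the 2 rows added gave 51.7 ± 1.9 FPKM in siDYRK2 and 55.3 ± 0.3 FPKM in scramble libraries (SD, n = 3 each).

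Genes on the opposite strand overlap others, and the labels do not say whether counting used the strand. HNRNPUL1 overlaps TGFB1, the gene of the ligand added in the study, which averaged 27.2 FPKM in siDYRK2 and 30.2 FPKM in scramble libraries (limma adjusted p = 0.0241). HNRNPA2B1 overlaps NFE2L3, at 10.7 FPKM in siDYRK2 and 7.87 FPKM in scramble libraries (limma adjusted p = 0.00346), and SRSF2 overlaps MFSD11, at 2.46 FPKM in siDYRK2 and 3.45 FPKM in scramble libraries (limma adjusted p = 0.00791). HNRNPAB overlaps PHYKPL, at 2.99 FPKM in siDYRK2 and 2.53 FPKM in scramble libraries (limma adjusted p = 0.0419). HNRNPH3, which was not called, overlaps RUFY2, called higher, and PBLD, called lower. NFE2L3 and PHYKPL moved in the direction of their members and TGFB1 in the other direction.

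Annotated transcripts of the decay-prone kind were common: 12 of 12 SRSF members and 13 of 22 HNRNP members (59.1%) have at least 1 transcript marked for nonsense-mediated decay in GENCODE v29, against 43.4% of tested protein-coding genes. The deposited values pool these with the productive transcripts, so a change in their balance within a gene is not visible here.

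An earlier scan of these same fold changes had singled out the words ATCTATA and CATCTAT, whose presence in the 3′ untranslated region went with lower calls, and the members were searched for both words. The sequence of the siRNA is not stated in the labels. Since the words were chosen on these data, the counts are a description only. In 1 principal coding transcript per gene from GENCODE v29 (GRCh38), 2 of 34 members held a word in the coding region, and both were among the 3 members called lower. Of the 5 members with a word in the 3′ untranslated region, the region of the earlier scan, none was called lower. Their sites are not shown. The 2 coding sites are shown with the word in capitals, HNRNPUL2 on chromosome 11 at position 1758 of 2244 coding bases and SRSF8 on chromosome 11 at position 740 of 849.
HNRNPUL2: gatgtgcctgaATCTATAatgctggagatg
SRSF8: gtccaggtcttCATCTATgaccaggagtcc

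Of all searched genes 11.8% held a word in the coding region, of which 22.6% were called lower and 22.1% higher. In the 3′ untranslated region 14.9% of searched genes held a word, of which 29.5% were called lower and 16.9% higher, against 16.2% lower and 26.5% higher among genes with neither. These sets differ in length: the median 3′ untranslated region was 2958 bases in genes with a word there, 1282 bases in those with a coding word and 899 bases in those with neither, and the part of length in these shares was not tested. The 5 members with a word in the 3′ untranslated region were SRSF7, SRSF12, HNRNPU, HNRNPH1 and HNRNPH3. SRSF7 and HNRNPU were called higher and the other 3 were not called, so none of the 5 was lower.

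Other genes of the splicing pathway were counted from 8 lists by role, with 160 genes tested. In all 67 were called (41.9%), 54 higher and 13 lower, and the median log2 fold change was 0.079. As for the members, the share called is near the 38.3% of all genes and under the 54.8% of abundant genes. Of the 160 genes, 111 averaged 10 FPKM or more, and of all genes at that level 32.3% were called higher and 22.5% lower. Beside these shares the 54 higher calls are near the background, and the 13 lower calls are fewer. Whether the split by direction differs beyond chance was not tested.

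The hnRNPs under other symbols gave 5 calls among 10 tested. PCBP4, a poly(C) binder induced by p53, had 7.42, 7.76 and 6.92 FPKM in siDYRK2 libraries and 4.21, 4.58 and 4.41 FPKM in scramble libraries, the largest difference in these lists apart from DYRK2 (log2 fold change 0.68, limma adjusted p = 0.000149). TARDBP, or TDP-43, was higher (log2 fold change 0.24, limma adjusted p = 0.00377) and so was RBMX (0.19, 0.0233). RALY was lower, with a log2 fold change of −0.17 (limma adjusted p = 0.0353). RBMX lost its call without siDYRK2 replicate 2 or 3 or scramble replicate 2 or 3, with adjusted p of up to 0.0774. RALY lost its call without siDYRK2 replicate 1 or 2 or scramble replicate 2 or 3, with adjusted p of up to 0.106. PTBP1, the polypyrimidine tract repressor, averaged 79.8 ± 2.5 FPKM in siDYRK2 and 77.4 ± 1.8 FPKM in scramble libraries, and PTBP1, PTBP3, SYNCRIP, PCBP1 and PCBP2 did not pass the test.

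Of SRPK1, SRPK2 and CLK1 to CLK4, the kinases that phosphorylate SR proteins, only SRPK2 was called. DYRK3, a kinase that dissolves nuclear speckles and was named here after its values were seen, had 2.60, 2.45 and 2.35 FPKM in siDYRK2 libraries and 3.06, 3.14 and 3.96 FPKM in scramble libraries (log2 fold change −0.38, limma adjusted p = 0.017). Its call was lost without siDYRK2 replicate 2 (adjusted p = 0.0502), without siDYRK2 replicate 3 (0.0527) and with no filter on low values (0.05). SRPK1, the main cytoplasmic SR kinase, had a log2 fold change of 0.052 (limma adjusted p = 0.314), and CLK1, CLK2, CLK3 and CLK4, the nuclear SR kinases, had −0.13, 0.061, −0.039 and −0.024, with limma adjusted p from 0.248 to 0.874. SRPK2 was called higher by 0.12 (limma adjusted p = 0.0393) and lost the call on leaving out any 1 of the 6 libraries, with adjusted p from 0.0532 to 0.137. Of 19 genes tested in the list of SR kinases, phosphatases and importins, 5 were called higher and 3 lower, with DYRK2 itself counted among the lower. PPP1CC, a catalytic subunit of the phosphatase that removes phosphate from SR proteins, had 34.15, 36.06 and 35.75 FPKM in siDYRK2 and 27.49, 27.96 and 25.91 FPKM in scramble libraries (log2 fold change 0.38, limma adjusted p = 0.00045). TNPO2, an importin related to the carrier of HNRNPA1, had 14.24, 13.49 and 13.94 FPKM in siDYRK2 and 11.19, 11.26 and 11.45 FPKM in scramble libraries (log2 fold change 0.29, limma adjusted p = 0.000911).

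In the core spliceosome lists higher calls outnumbered lower ones, as they also did among all genes averaging 10 FPKM or more, with 32.3% higher and 22.5% lower. Of 22 tested factors of U1, U2 and U2AF recognition, 12 were called higher and 0 lower, and the median log2 fold change was 0.15. Without scramble replicate 3 there were 8 higher calls and 0 lower ones, and without scramble replicate 2 there were 7 and 0. SF3B4, a branch-site protein of U2, had 89.99, 89.68 and 90.63 FPKM in siDYRK2 libraries and 76.53, 75.25 and 73.98 FPKM in scramble libraries (log2 fold change 0.26, limma adjusted p = 0.000383). DDX46, the helicase Prp5 of yeast, had a log2 fold change of 0.33 (limma adjusted p = 0.00189), and SF3B2 one of 0.22 (limma adjusted p = 0.00193). Of 15 tested Sm and LSm ring proteins, 6 were called higher and 0 lower, and those with the smallest adjusted p were SNRPD3 with 0.30 (limma adjusted p = 0.000435), LSM4 with 0.28 (0.000942) and SNRPN with 0.28 (0.00246). Of 28 tri-snRNP and catalytic factors 10 were called higher and 2 lower, and those with the smallest adjusted p were SNRNP40 (0.32), PLRG1 (0.27) and PRPF4 (0.21), all higher.

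Of 22 SR-like and SR-related regulators tested, 5 were called higher and 1 lower. PNN, a nuclear speckle protein first described at desmosomes, had 47.60, 49.51 and 44.20 FPKM in siDYRK2 libraries and 36.35, 34.08 and 36.77 FPKM in scramble libraries (log2 fold change 0.39, limma adjusted p = 0.00098). RNPS1, its partner in the PSAP complex, was higher by 0.22 (limma adjusted p = 0.00182), as was SCAF4 (0.22, 0.00206). Of 28 other regulators tested, 8 were called higher and 4 lower: MBNL1, a regulator of fetal to adult splicing switches, had 24.34, 25.59 and 25.80 FPKM in siDYRK2 and 33.96, 33.55 and 31.50 FPKM in scramble libraries (log2 fold change −0.38, limma adjusted p = 0.000469). RBM10 (0.30) and KHDRBS1, or Sam68 (0.21), were higher. Of 16 exon junction and decay factors, 5 were called higher and 1 lower, and those with the smallest adjusted p were ETF1 (0.30), UPF2 (0.42) and EIF4A3 (0.22), all higher.

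**Figure D4:**
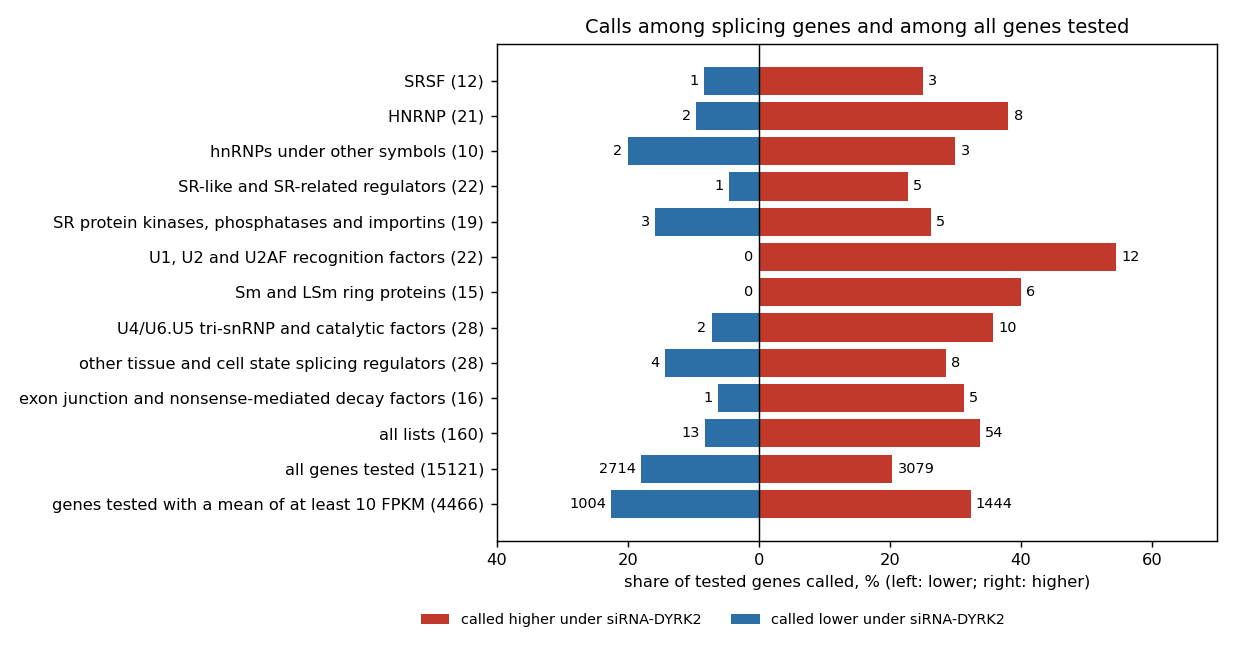
Share of the tested genes of each list called higher (red, right) and lower (blue, left) in siDYRK2 libraries, in %, with the number of calls at the bar and the number tested in parentheses. The U1, U2 and U2AF list has 12 higher and 0 lower calls, and the bottom bars give the same counts over all 15121 genes tested and over the 4466 with a mean of at least 10 FPKM.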

How the data were processed

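RNA from HK-2 cells was sequenced in 6 libraries, and the authors deposited 1 table of FPKM values per gene and library, with 2 decimals. Per the submitters' processing notes HISAT2, StringTie and GRCh38 were used; their versions, their roles and any strand setting were not given in the sources used here. Depth is unknown: at the best step tried, 25.4 to 27.2% of low values of short genes were within 0.1 of whole reads, where 20% is chance, so no counts were recovered. Values were tested with limma 3.58.1 (R 4.3.3) on log2(FPKM + 0.5) with a mean-variance trend, for 15121 genes averaging 0.5 FPKM or more and Benjamini-Hochberg adjustment over all of them; log2 fold changes on this scale understate those of low genes. The procedure was also run on simulated data with far fewer changed genes than were called here, so that check says little about these calls. FPKM totals were 254334 to 255368 in siDYRK2 and 252318 to 255378 in scramble libraries, with mitochondrial shares of 27.6 to 27.8% and 26.3 to 27.5%. Library correlations were 0.989 to 0.991 within and 0.974 to 0.976 between groups.

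The members, lists, words and named genes were chosen with earlier results of these data known. Values by library were given for called members, for the 3 highest and the 3 least changed members of each family, and for some others described beside them. From each list up to 3 called genes with the smallest adjusted p were named, with SRPK1, SRPK2, CLK1 to CLK4 and the hnRNPs under other symbols, of which 1 is not reported here; MATR3, listed in 2 rows, was left out. Promoter windows were taken from RefSeq (GRCh38.p14), with no window for 3 members, and transcripts from GENCODE v29. Alternatives were 2 other pseudocounts (0.1 and 1), no filter and a filter at 2 FPKM, no trend, median scaling, rescaling without mitochondrial genes, a replicate block and each library left out.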

Additional observations from a re-analysis of the deposited data

How the results depend on the processing

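Under the 14 alternatives, 9 of the 14 called members kept their call throughout (SRSF8, SRSF9, SRSF10, HNRNPD, HNRNPA3, HNRNPA2B1, HNRNPAB, HNRNPUL1 and HNRNPUL2), and 5 lost it in at least 1. HNRNPH2 lost its call in 8 alternatives, SRSF7 and HNRNPU in 7 each, HNRNPR in 6 and HNRNPC in 1. For HNRNPH2, SRSF7, HNRNPU and HNRNPR these included the fit with no trend and the replicate block. HNRNPH2 and HNRNPU also lost the call with no filter on low values. None of the 14 called members changed sign. The DYRK2 log2 fold change stayed between −1.93 and −1.48. The SRSF median log2 fold change was 0.024 with the filter at a mean of 2 FPKM, which leaves out SRSF12, and 0.046 to 0.088 on leaving out each library in turn. The number of HNRNP members called was 6 to 9 on leaving out each library in turn, with 2 libraries left in 1 group.

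Among members and named genes that were not called, the sign changed for PTBP3 when rescaled without mitochondrial genes (0.0050), and on leaving out 1 library for 9 genes. Their log2 fold changes ranged over the 6 such fits from −0.014 to 0.054 for SRSF6, −0.036 to 0.018 for SRSF11, −0.015 to 0.075 for HNRNPA0, −0.059 to 0.063 for HNRNPDL, −0.015 to 0.022 for HNRNPM, −0.13 to 0.093 for HNRNPA1L3, −0.10 to 0.021 for CLK4, −0.0034 to 0.050 for PCBP1 and −0.024 to 0.032 for PTBP3. None of these passed the test in those fits. The median log2 fold change over all genes was 0.0086 in the main fit, 0.0086 with median scaling and 0.016 when rescaled without mitochondrial genes.

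Replicate numbers did not pair the libraries: deviations of libraries with the same number had correlations of −0.08, 0.02 and −0.09. With a replicate block 3 SRSF and 7 HNRNP members were called, and 4816 genes in all. Depth is unknown, so no floor can be given for low members such as HNRNPA1L2.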
